A study of Mus musculus with 20 samples.

Results

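The interferon response genes Stat2, Irf1, Irf7, Irf8, Ifit1, Ifit2, Ifit3, Rsad2 and Usp18 were followed in whole mouse kidney after ischemia reperfusion injury (IRI), after ischemic preconditioning (IPC) and after hemin. They were found by gene name among the probes of a one-colour Agilent mouse array: 9 genes, read by 14 probes, of 27827 gene names in all. All mice were C57BL/6 males of 8 to 12 weeks, and each of 5 groups held 4 arrays. For Control mice the study describes no surgery and no treatment. IRI mice had both renal pedicles clamped for 45 min under anesthesia and the kidneys were collected after 6 h of reperfusion. IRI+Hemin mice received hemin, a heme compound that induces heme oxygenase 1, at 25 mg/kg into the peritoneum 24 h before the same surgery. IPC+IRI mice had a bilateral ischemia of 15 min, and 7 days later the same clamping and reperfusion. Hemin mice received hemin and no surgery, and the labels do not give the time from hemin to kidney collection for them. Sham surgery is described for no group, so anesthesia and laparotomy cannot be told apart from the ischemia in any comparison of an operated with an unoperated group.

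Interferons are cytokines of antiviral defence. Type I interferons act through a receptor pair whose signal reaches the nucleus through a complex that holds STAT2 and IRF9 and binds the interferon-stimulated response element (ISRE) in target promoters. Interferon gamma acts mainly on promoters with a gamma-activated site (GAS), and Irf1 is a classical target. Irf7 amplifies type I interferon production and Irf8 is a transcription factor of monocytes, macrophages and dendritic cells. Ifit1, Ifit2 and Ifit3 encode tetratricopeptide proteins that act on viral RNA and on translation, Rsad2 encodes viperin, an antiviral radical SAM enzyme, and Usp18 removes the ubiquitin-like modifier ISG15 and restrains signalling from the type I receptor.

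Promoter sequence was at hand for 8 of the 9 genes (RefSeq, build GRCm38.p6), and Usp18 was not among them. The 250 bases before each start site were searched on both strands for the ISRE core, a pair of GAAA repeats with any 2 bases between them (TTTC repeats on the other strand), and for the GAS core TTCNNNGAA. The stretches below are shown because they hold these letters, and the capitals mark the match.

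Ifit1, chr19:34640755-34640843, plus strand: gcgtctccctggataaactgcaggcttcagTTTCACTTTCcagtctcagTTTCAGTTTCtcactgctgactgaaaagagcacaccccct
Ifit3, chr19:34583343-34583446, plus strand: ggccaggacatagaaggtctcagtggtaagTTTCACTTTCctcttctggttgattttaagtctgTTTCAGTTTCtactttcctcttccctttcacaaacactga
Rsad2, chr12:26456533-26456602, minus strand: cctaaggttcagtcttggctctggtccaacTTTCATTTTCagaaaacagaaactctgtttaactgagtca
Stat2, chr10:128270248-128270315, plus strand: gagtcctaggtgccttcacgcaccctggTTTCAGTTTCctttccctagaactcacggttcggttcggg
Irf1, chr11:53769894-53769962, plus strand: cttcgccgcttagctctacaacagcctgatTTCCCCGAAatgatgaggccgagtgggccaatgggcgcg

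A gene was counted when any of its listed promoters held the letters. The ISRE letters were found for 4 of the 8 genes (50%) and for 936 of 27025 genes in all (3.46%). Ifit1 and Ifit3 each held a pair of matches, which began 104 and 85 bases before the start site in Ifit1 and 156 and 122 bases before it in Ifit3. The GAS letters were found for Irf1, Irf8 and Ifit2, 3 of 8 (37.5%), against 2197 of 27025 genes (8.13%), and each of these 3 genes had a second listed promoter without them. Neither pattern was found in this window of Irf7. A match is a run of letters and was not tested as a binding site.

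Levels are given as log2 expression, the log2 of the processed probe signal over the 75th percentile of its array, so that 0 is the 75th percentile and 1 unit is a doubling. A gene's value is the mean over its probes, and levels are compared between groups for a gene, never between genes. Each of the 9 genes was well above background by the scanner's criterion on all 20 arrays. The 75th percentile of the processed signal ran from 146.7 to 357.9 over the arrays, and 57.4 to 67.4% of gene names were well above background. Arrays of a group correlated at 0.9749 to 0.9949 over the 14534 genes well above background on all 20 arrays. A slide held the 4 arrays of a single group, so a difference between slides cannot be told apart from one between groups, and of the comparisons below only IRI against Control was scanned on a single day. As a check of the labelled tissue, 5 proximal tubule markers summed to 230 to 416 times the 75th percentile on every array. The labels number the replicates without stating that each is a separate animal, so the p-values measure the spread between these samples. Adjusted p-values are from limma, with Benjamini-Hochberg adjustment over all genes of a comparison, and genes under an adjusted p of 0.05 are the ones called. Several comparisons share arrays, and their values are set side by side.

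**Figure D1:**
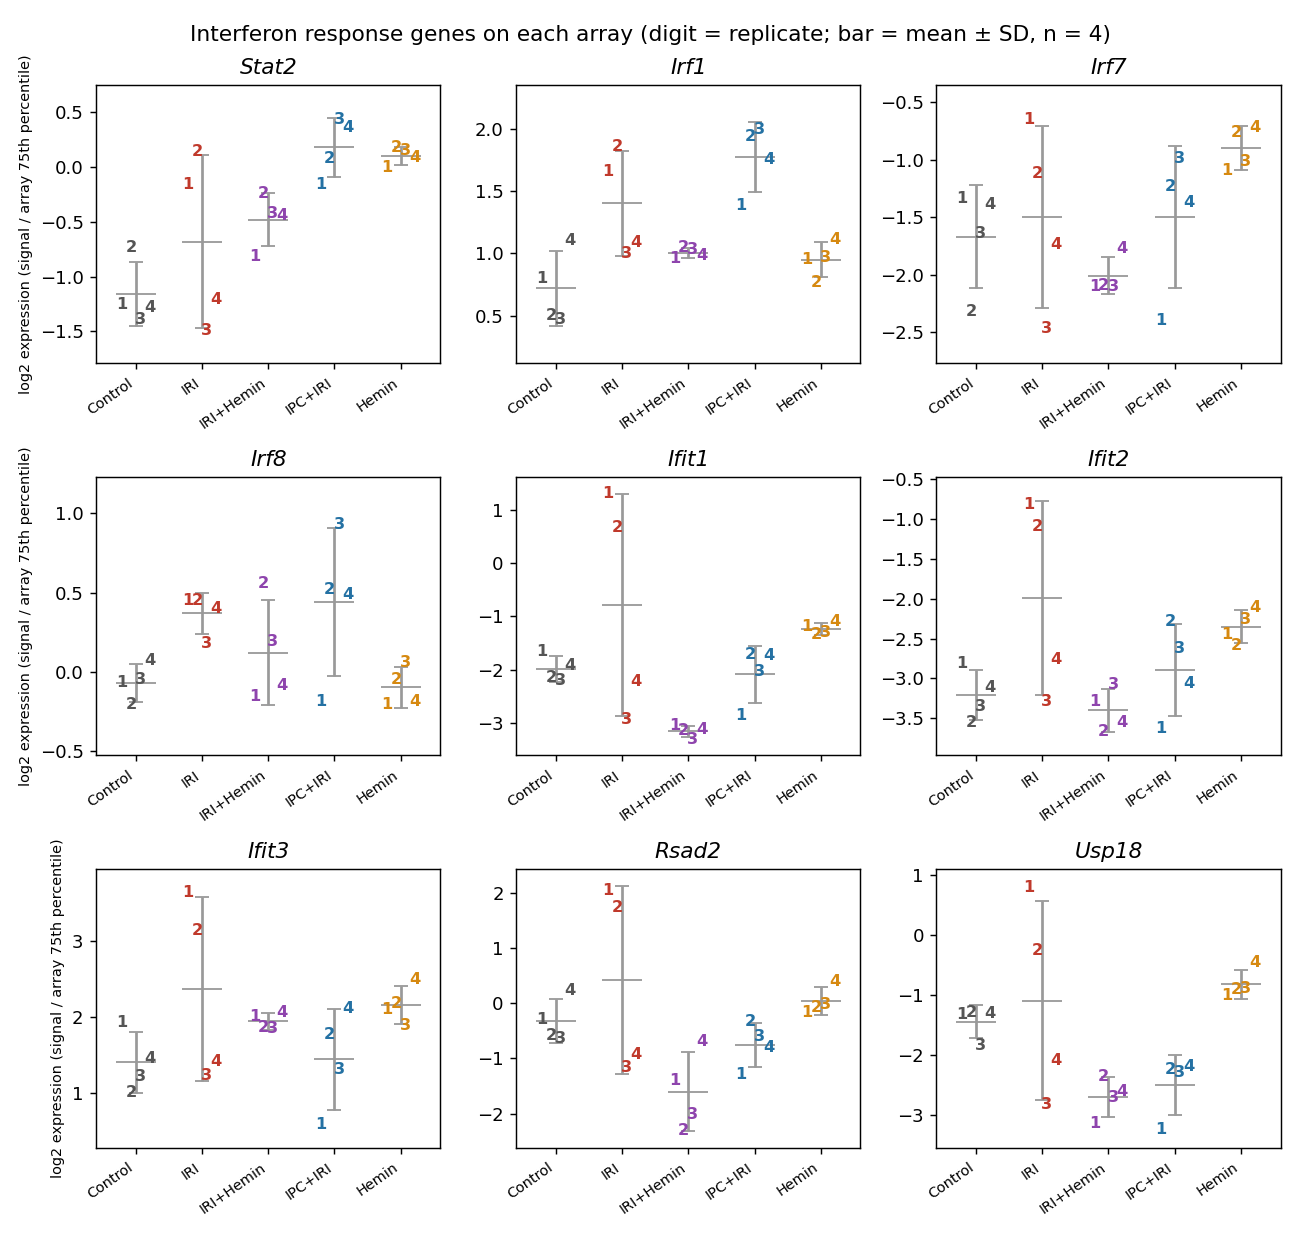
Log2 expression (vertical axis, 0 is the array's 75th percentile) of the 9 interferon response genes in the 5 groups of kidneys (horizontal axis). Each digit is the replicate number of an array, and the bar with whiskers is the mean ± SD of 4 arrays. IRI replicates 1 and 2 lie above replicates 3 and 4 in each of the 9 panels.

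The IRI arrays stood apart from each other. Ifit1 was at 1.31 and 0.66 in IRI replicates 1 and 2 and at -2.93 and -2.22 in replicates 3 and 4, against -1.67, -2.15, -2.21 and -1.93 in the Control arrays. IRI replicates 1 and 2 thus lay above every Control array and replicates 3 and 4 below every one of them. Replicates 1 and 2 were the highest pair of the group in 9 of 9 members and in 3023 of 19129 gene names (15.8%). The gap between the lower of replicates 1 and 2 and the higher of replicates 3 and 4 was 2.88 for Ifit1, 2.66 for Rsad2, 1.83 for Usp18, 1.73 for Ifit3, 1.67 for Ifit2 and 1.05 for Stat2. It was 0.61 for Irf7, 0.57 for Irf1 and 0.04 for Irf8. A gap over 1 was found in 6 of 9 members and in 87 gene names in all (0.455%), of which 30 others were on the interferon pathway lists described further down and 51 were on no list. The reverse gap, replicates 3 and 4 over replicates 1 and 2 by more than 1, was found in 8 gene names. Mx2, an antiviral GTPase of the type I response, had a gap of 3.85 and was well above background on all 4 IRI arrays.

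The range over the 4 IRI arrays was 4.24 for Ifit1 (18.9-fold), and 26 gene names (0.136%) had a wider one. Usp18 spanned 3.62 (12.3-fold) and Rsad2 3.19 (9.14-fold), against a median range of 0.51 over all gene names in IRI. Irf8, with a range of 0.27, was on the other side of that median. Because replicates differed by this much, results with IRI are also given without replicates 1 and 2 and, as the mirror of that, without replicates 3 and 4. These omissions were chosen after the values were seen, so the direction in which they move an estimate is fixed by the choice, and their values are descriptions with no test. The summed level of 4 neutrophil markers was 6.8 and 8.07 in IRI replicates 1 and 2 and 4.15 and 2.48 in replicates 3 and 4, while that of 8 macrophage and monocyte markers was 12.4, 12.8, 11.5 and 12.6. Adipocyte markers summed to 71.3, 0.0922, 0.0928 and 14.9 in the same arrays, in another order than the split. The part of these cells in the split was not tested. In whole kidney, fewer cells of a type and less RNA per cell cannot be told apart.

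Stat2 separated IPC+IRI and Hemin from Control. The Control arrays lay at -1.25, -0.73, -1.39 and -1.28, the IPC+IRI arrays at -0.16, 0.08, 0.43 and 0.36 and the Hemin arrays at 0.00, 0.18, 0.15 and 0.09. No array of IPC+IRI or Hemin reached down to the highest Control array. IPC+IRI and Hemin were scanned on the same day and Control on another, so scan day and group cannot be told apart in this separation. IRI+Hemin arrays were at -0.82, -0.24, -0.42 and -0.44, and IRI arrays at -0.16, 0.14, -1.49 and -1.21, from the level of Control to that of Hemin.

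Irf1 was at 0.80, 0.50, 0.47 and 1.10 in Control and at 1.38, 1.94, 1.99 and 1.75 in IPC+IRI, with no overlap. In IRI it was at 1.66, 1.86, 1.00 and 1.09, so that replicates 3 and 4 lay just under the highest Control array. IRI+Hemin (0.96 to 1.05) and Hemin (0.77 to 1.11) were narrow groups within or near the upper part of the Control range.

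Irf7 was at -1.34, -2.32, -1.64 and -1.39 in Control and at -1.09, -0.76, -1.02 and -0.72 in Hemin, above every Control array. IRI+Hemin arrays (-2.10 to -1.77) lay below every Hemin array. IRI (-2.47 to -0.65) spanned the values of both, and IPC+IRI (-2.40 to -0.99) overlapped both, with Hemin replicates 2 and 4 above all its arrays. Irf8 moved within a narrow range in most groups: Control arrays ran from -0.21 to 0.07 and IRI arrays from 0.18 to 0.45 without overlap, and IPC+IRI arrays ran from -0.19 to 0.93 and overlapped both.

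Ifit1 outside IRI and Control was at -3.04, -3.15, -3.31 and -3.13 in IRI+Hemin, at -2.86, -1.72, -2.04 and -1.73 in IPC+IRI and at -1.20, -1.34, -1.30 and -1.10 in Hemin. Every IRI+Hemin array was below every array of the other 4 groups, and every Hemin array was above every Control array. Ifit2 was at -0.82, -1.09, -3.29 and -2.76 in IRI, at -3.56 to -2.81 in Control, at -3.67 to -3.08 in IRI+Hemin and at -2.59 to -2.11 in Hemin. The Ifit2 value mixes a brighter probe with a dim one, which was well above background on 0 of 4 Control and 2 of 4 IRI arrays. Ifit3, which has the near-identical copy Ifit3b and is therefore uncertain as a gene, was at 3.64, 3.14, 1.23 and 1.41 in IRI against 1.00 to 1.92 in Control. In IRI+Hemin it was at 1.84 to 2.06, and the low values of Ifit1 in that group had no counterpart in Ifit3.

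Rsad2 was at 2.03, 1.73, -1.16 and -0.92 in IRI, at -0.29, -0.58, -0.64 and 0.23 in Control, at -1.39, -2.30, -2.01 and -0.69 in IRI+Hemin and at -0.16, -0.08, -0.03 and 0.40 in Hemin. Every IRI+Hemin array was below every Control and Hemin array. Usp18 was at 0.79, -0.27, -2.83 and -2.10 in IRI and at -1.33, -1.30, -1.85 and -1.31 in Control. It was at -3.15, -2.37, -2.71 and -2.61 in IRI+Hemin, at -3.25, -2.25, -2.30 and -2.20 in IPC+IRI, and at -1.02, -0.91, -0.89 and -0.47 in Hemin. Both groups with IRI after a pretreatment thus lay wholly below Control, and Hemin lay wholly above it. When the 5 groups were put in order of their mean for each of the 9 genes, 0 of the 36 neighbouring pairs differed past the threshold in limma, although groups farther apart did.

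**Figure D2:**
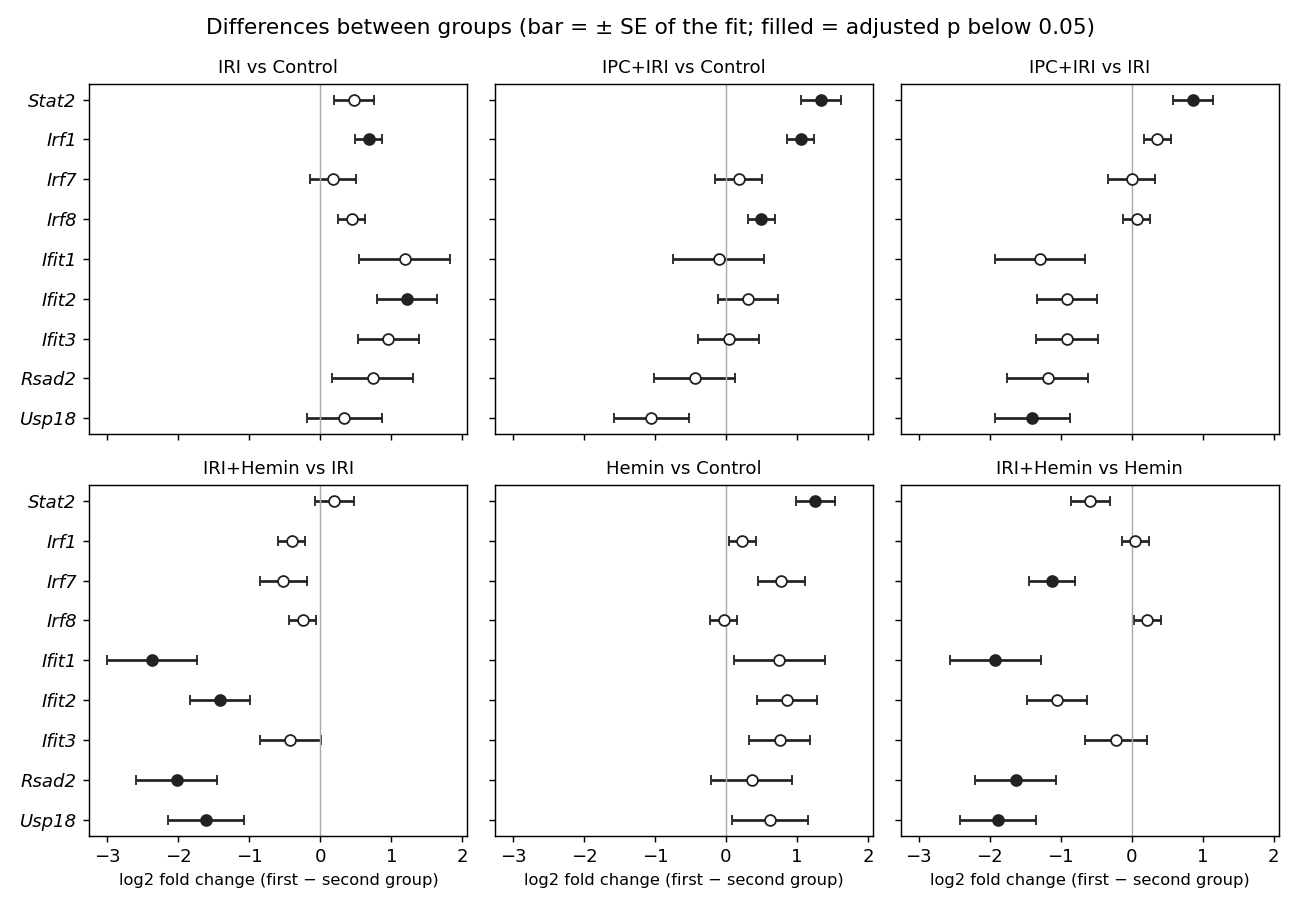
Log2 fold change (horizontal axis, ± SE) of each interferon response gene (vertical axis) in 6 comparisons of 4 against 4 arrays. Filled points passed an adjusted p of 0.05 in limma and open points did not. Irf1 and Ifit2 were called in IRI against Control, and Ifit1, Ifit2, Rsad2 and Usp18 in IRI+Hemin against IRI.

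IRI was compared with Control to ask what ischemia and reperfusion changed in the kidney. Irf1 rose 1.61-fold and Ifit2 rose 2.32-fold, and the other 7 genes did not pass the test. The log2 fold change was 0.68 ± 0.19 (SE, adjusted p = 0.00545) for Irf1 and 1.22 ± 0.42 (adjusted p = 0.0223) for Ifit2. Of the 9 members 2 were called, while 50.6% of 17719 genes tested were called and 17.0% were called as higher, a share near that of the members. All 9 estimates were positive with a median of 0.68, against -0.17 over all genes. Ifit1 had the value 1.19 ± 0.64 (adjusted p = 0.127) and Rsad2 0.74 ± 0.57 (adjusted p = 0.292), with the 4 IRI arrays on both sides of Control. Irf8, at 0.44 ± 0.19, was the only member without overlap (46.1% of all genes had none) and had an adjusted p of 0.0621. With the IRI and Control arrays fitted alone Irf8 was called (adjusted p = 0.0123) and Ifit2 was not (adjusted p = 0.0802). The Ifit2 call was lost in 5 of 19 alternatives, normexp background correction among them (adjusted p = 0.128).

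The estimates moved with the IRI arrays that were kept. Irf1 kept its call in limma when any 1 array was left out (adjusted p from 0.00213 to 0.0242). It lost the call with the deposited log2 values (adjusted p = 0.0591). Without IRI replicates 1 and 2 the estimates were 0.33 for Irf1, 0.18 for Ifit2, -0.58 for Ifit1 and -1.02 for Usp18, and without replicates 3 and 4 they were 1.04, 2.25, 2.97 and 1.71. Without replicate 3, 5 members were called and all rose, where 46.6% of all genes were called and 32.7% of the calls were higher. Ifit1 was then at 1.91 (adjusted p = 0.00811). Ifit2 also lost its call without IRI replicate 1 or 2 or Control replicate 2. Of the 9 members, 9 lay above all 4 Control arrays in IRI replicate 1 and 9 in replicate 2, but 1 and 2 did so in replicates 3 and 4, where 5 and 3 lay below all of them. Of all gene names 23.5 to 25.6% lay above and 42.2 to 50.4% below all Control arrays in the 4 IRI arrays, so the members' counts below are near that share. Of the marker genes tested, 3 of 7 macrophage and monocyte and 2 of 3 neutrophil genes were higher in IRI, and 1 of 3 neutrophil, 3 of 3 B cell, 3 of 5 T and NK cell and 3 of 4 dendritic cell genes were lower. Among kidney markers, 1 of 4 distal tubule and collecting duct and 1 of 5 endothelial genes were higher. Lower were 2 of 5 endothelial, 1 of 5 proximal tubule and 1 of 3 podocyte genes. Their part in the members' values was not tested.

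IPC+IRI was set against Control to ask how preconditioned and injured kidneys stood to those of Control mice. Stat2 rose 2.52-fold, Irf1 2.07-fold and Irf8 by less, while the Ifit genes, Rsad2 and Usp18 did not pass the test. The log2 fold changes were 1.34 ± 0.28 for Stat2 (adjusted p = 0.000543), 1.05 ± 0.19 for Irf1 (adjusted p = 0.000151) and 0.50 ± 0.19 for Irf8 (adjusted p = 0.0304). These are 3 of 9 members called, all as higher, against 55.8% of 18352 genes called, 23.1% as higher. In 3 members the groups did not overlap (45.1% of all genes). Ifit1 was at -0.10 (adjusted p = 0.906), Ifit2 at 0.31 (adjusted p = 0.551), Ifit3 at 0.04 (adjusted p = 0.94) and Usp18 at -1.05 ± 0.53 (adjusted p = 0.0979, lower on every IPC+IRI array). Fitted alone, the IPC+IRI and Control arrays gave Stat2 and Irf1 as higher and Usp18 as lower (adjusted p = 0.00804), and Irf8 was not called (adjusted p = 0.0836). The Irf8 call was lost in 10 of 19 alternatives, with adjusted p from 0.00121 to 0.265 over them, and its 2 probes gave 0.02 and 0.58. Beside these values, 4 of 8 macrophage and monocyte, 3 of 4 neutrophil and 1 of 3 leukocyte marker genes were higher in IPC+IRI, 1 of 8 and 1 of 4 of the first 2 lists were lower, and so were 3 of 3 B cell, 2 of 5 T and NK cell and 3 of 4 dendritic cell genes, with 1 of 4 dendritic cell genes higher. Of the kidney markers, 3 of 4 distal tubule and collecting duct genes were higher. Lower were 2 of 5 proximal tubule, 2 of 3 podocyte and 1 of 5 endothelial genes. The part of these cells was not tested.

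IPC+IRI was compared with the same IRI arrays to ask what preconditioning changed in the injured kidney. Stat2 rose by 0.86 ± 0.28 on the log2 scale (adjusted p = 0.0181), and Usp18 fell by 1.40 (SE 0.53, adjusted p = 0.0395), a 2.63-fold lower level. The 2 calls among 9 members stand beside 43.7% called of 17668 genes, 26.0% as higher and 17.7% as lower. Ifit1, Ifit2, Ifit3 and Rsad2 had estimates from -1.29 to -0.91 that did not pass (adjusted p from 0.0887 to 0.107), and in no member were the groups free of overlap (37.9% of all genes were). Irf1 was at 0.36 (adjusted p = 0.123) and Irf7 at 0.00 (adjusted p = 0.999).

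Here too the result moved with single arrays. Without IRI replicate 3 or 4, 5 members fell, where 38.1 and 41% of all genes were called and 61.1 and 57.1% of the calls were higher. Usp18 lost its call without IRI replicate 1 or 2 or IPC+IRI replicate 1, 2 or 3. Stat2 lost its call without IRI replicate 3 or 4 or IPC+IRI replicate 3. Without IRI replicates 1 and 2 together, Stat2 was at 1.52, Irf1 at 0.72 and Usp18 at -0.03, and without replicates 3 and 4 at 0.19, 0.01 and -2.76. IPC+IRI replicate 1 was itself the lowest of its group in 9 of 9 members and in 27.9% of all gene names. With these 8 arrays fitted alone, 0 members were called in limma, where 37.9% of all genes were, and 1 member had an unadjusted p below 0.05. Of the marker genes, 3 of 8 macrophage and monocyte, 2 of 5 T and NK cell, 1 of 3 leukocyte and 1 of 5 proximal tubule genes were higher in IPC+IRI, and 2 of 8 macrophage and monocyte, 3 of 5 endothelial and 2 of 5 proximal tubule genes were lower. Their part in the members' values was not tested.

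IRI+Hemin was compared with IRI to ask what hemin changed in the injured kidney. Ifit1 fell by 2.37 on the log2 scale (5.16-fold lower, SE 0.64, adjusted p = 0.0061) and Rsad2 fell by 2.02 (4.04-fold lower, SE 0.57, adjusted p = 0.00816). Ifit2 was 2.66-fold lower (-1.41 ± 0.42, adjusted p = 0.0115) and the feedback gene Usp18 3.05-fold lower (-1.61 ± 0.53, adjusted p = 0.0197). All 4 calls among 9 members were downward, against 18.0% of 17835 genes called as lower and 44.0% called in either direction. The median of the members was -0.52 and that of all genes 0.08. Stat2 (0.20, adjusted p = 0.586), Ifit3 (-0.42, adjusted p = 0.457) and the 3 Irf genes (-0.52 to -0.25) did not pass. The 3 Rsad2 probes gave -2.08 to -1.57 and the 2 Ifit2 probes -1.56 and -0.51.

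These falls too moved with the IRI arrays that were kept. Ifit1 was the only member whose groups did not overlap (15.5% of all genes were lower without overlap). With IRI replicates 1 and 2 left out the estimates were -0.59 for Ifit1, -0.55 for Rsad2, -0.38 for Ifit2 and -0.24 for Usp18, and with replicates 3 and 4 left out -4.15, -3.48, -2.45 and -2.97. Stat2 was at 0.87 and -0.47. Usp18 also lost its call without IRI replicate 1 or 2 or IRI+Hemin replicate 1. With the 8 arrays fitted alone 0 members were called in limma, where 38.5% of all genes were. Of the members 4 had an unadjusted p below 0.05, and the adjusted p of Ifit1 was 0.0577. Over the alternatives that kept at least 3 IRI arrays, the adjusted p of Ifit1 ran from 0.000436 to 0.0577 and that of Rsad2 from 0.00155 to 0.112. Of the marker genes, 0 of 8 macrophage and monocyte, 0 of 4 neutrophil, 0 of 5 T and NK cell and 0 of 4 dendritic cell genes were called between these groups in limma, while 1 of 2 B cell genes was lower and 3 of 5 proximal tubule, 3 of 5 endothelial and 2 of 4 distal tubule and collecting duct genes were called in mixed directions. Their part in these falls was not tested. The neutrophil sum was 5.15, 9.45, 6.63 and 2.19 in IRI+Hemin.

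Hemin was compared with Control for the effect of hemin without surgery. Stat2 rose 2.40-fold, by 1.26 ± 0.28 on the log2 scale (adjusted p = 0.00215), and no other member was called. The count of 1 of 9 stands beside the 35.9% called among 18579 genes, 18.4% as higher. Estimates were positive in 8 of 9 members with a median of 0.75, against 0.06 over all genes, and 5 members (Stat2, Irf7, Ifit1, Ifit2 and Usp18) had no overlap between the groups, each with Hemin higher, beside 19.5% of all genes. Irf7 was at 0.78 (adjusted p = 0.0774), Ifit2 at 0.86 (adjusted p = 0.119), Ifit1 at 0.75 (adjusted p = 0.375) and Usp18 at 0.62 (adjusted p = 0.376). The 3 Rsad2 probes differed in sign, from -0.18 to 0.43.

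The fit used a single spread for all 5 groups, and that spread holds the IRI arrays. With the Control and Hemin arrays fitted alone, 6 members rose: Stat2, Irf7 (adjusted p = 0.0212), Ifit1 (adjusted p = 0.00443), Ifit2 (adjusted p = 0.00696), Ifit3 (adjusted p = 0.0203) and Usp18 (adjusted p = 0.0193), where 41.2% of all genes were called and 52.5% of the calls were higher. Without scaling between arrays 5 were called, in a setting where the median of all genes moved to 0.62. There 49.8% of all genes were called and 94.8% of the calls were higher. Neutrophil marker sums were 0.30 to 0.659 in Control and 0.485 to 1.60 in Hemin, and those of macrophage and monocyte markers 6.19 to 7.28 and 4.88 to 6.26. Of the marker genes tested, 2 of 3 B cell, 2 of 4 dendritic cell, 1 of 8 macrophage and monocyte and 1 of 5 proximal tubule genes were lower in Hemin. Their part in the values above was not tested.

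IRI+Hemin was also set against Hemin, both groups having received the compound. Usp18 was 3.69-fold lower (-1.88 ± 0.53, adjusted p = 0.00796), Ifit1 3.79-fold lower (-1.92 ± 0.64, adjusted p = 0.0208), Rsad2 3.1-fold lower (-1.63 ± 0.57, adjusted p = 0.0267) and Irf7 2.17-fold lower (-1.12 ± 0.33, adjusted p = 0.0119) in the operated group. The groups of these 4 genes did not overlap, nor did those of Stat2 (-0.58, adjusted p = 0.0937) and Ifit2 (-1.05, adjusted p = 0.0505), 6 in all beside 27.6% of all genes lower without overlap. The 4 downward calls among 9 members stand beside 44.2% called of 18634 genes, 27.8% as lower. Irf1 was at 0.05 (adjusted p = 0.83). Fitted alone, these arrays gave 6 members called, the 4 above with Stat2 (adjusted p = 0.00725) and Ifit2 (adjusted p = 0.00128), where 46.7% of all genes were called. The Rsad2 call was lost in 4 of 19 alternatives (adjusted p from 0.00448 to 0.123), among them leaving out IRI+Hemin replicate 2 (0.0811) or 3 (0.0675) or Hemin replicate 4 (0.066). Of the marker genes, 3 of 4 neutrophil and 3 of 8 macrophage and monocyte genes were higher in IRI+Hemin, and 3 of 5 proximal tubule, 2 of 5 T and NK cell, 2 of 2 B cell and 1 of 4 dendritic cell genes were lower. Their part in the members' values was not tested.

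IRI+Hemin against IRI and Hemin against Control share no array, and their difference was tested as an interaction, the change with hemin in operated kidneys minus that in unoperated ones. Ifit2 (-2.27 ± 0.59, adjusted p = 0.0253) and Ifit1 (-3.12 ± 0.90, adjusted p = 0.0406) passed, 2 of 9 members against 7.77% of 19064 genes and 1.95% with a negative sign. Rsad2 was at -2.37 (adjusted p = 0.0791) and Usp18 at -2.23 (adjusted p = 0.0761), and all 9 estimates were negative, with a median of -1.29 beside 0.01 over all genes. Of the alternatives that kept at least 3 IRI arrays, the Ifit1 call was lost in 19 of 27 (adjusted p from 0.00493 to 0.104) and the Ifit2 call in 6 of 27 (0.00444 to 0.359). Ifit1 was at -1.34 without IRI replicates 1 and 2 and at -4.90 without replicates 3 and 4.

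**Figure D3:**
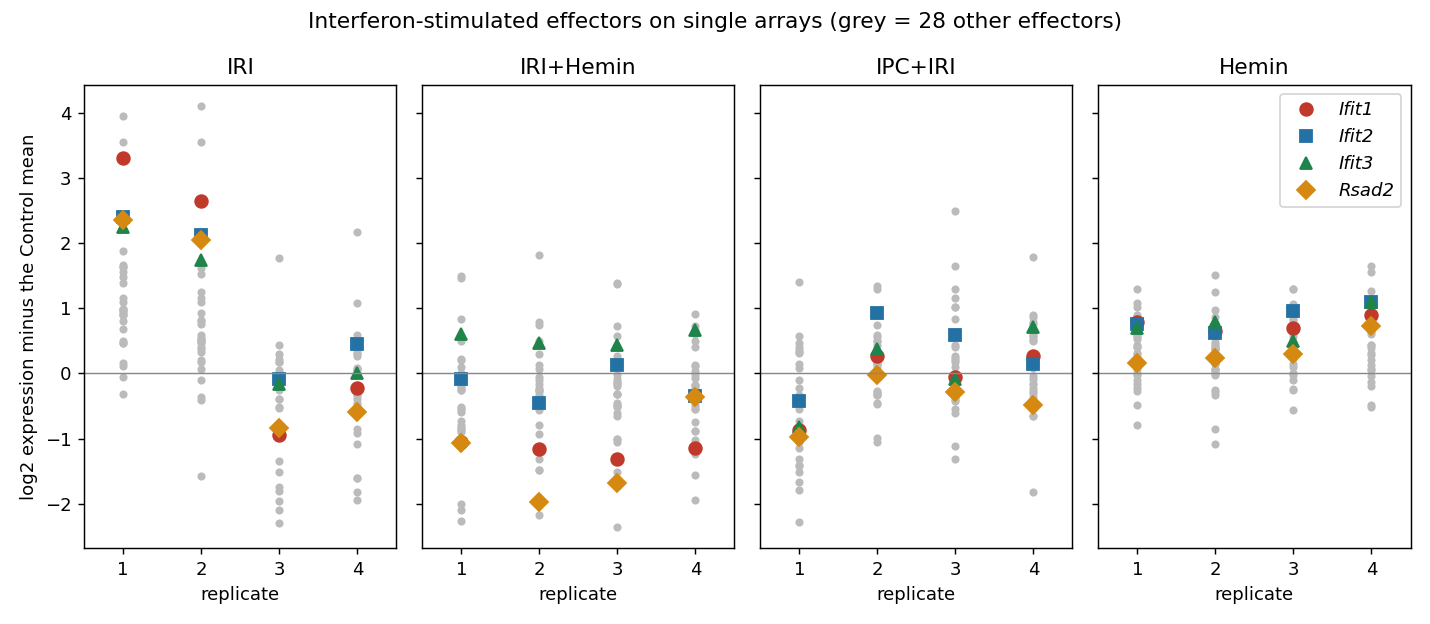
Log2 expression minus the Control mean (vertical axis) on each array of IRI, IRI+Hemin, IPC+IRI and Hemin (horizontal axis, by replicate). Coloured points are Ifit1, Ifit2, Ifit3 and Rsad2, and grey points are 28 other antiviral effector genes that were well above background on all 20 arrays. IRI replicates 1 and 2 lie high and replicates 3 and 4 low, and the 4 Hemin arrays lie close together.

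Other genes of the pathway were read from lists of 121 genes, 118 of them on the array, and the counts that follow leave out the 9 members. Of 32 antiviral effector genes, 27 lay above all 4 Control arrays in IRI replicate 1 and 24 in replicate 2, and 23 and 20 lay below all of them in replicates 3 and 4. Of all gene names 23.5 to 25.6% lay above and 42.2 to 50.4% below in these arrays. In the 4 Hemin arrays 18, 18, 20 and 19 effector genes lay above and 2 to 4 below, where 30.9 to 34.0% of all gene names lay above and 26.7 to 30.4% below. The split of the IRI group was thus seen in effector genes that were not members: replicates 1 and 2 were the highest pair in 26 of 32 (81.2%), and in 21 of 25 interferon gamma targets (84.0%). Among the type I ligands, Ifna4, Ifnb1, Ifne and Ifnk were well above background on no array, and Ifna2 was on 3 of 4 IRI arrays and on 4 of 4 in each other group, with group means of -4.69 (IRI) to -3.32 (Control). Ifng, the type II ligand, was well above background on 3 of 20 arrays.

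In IRI against Control, 5 of 29 effector genes tested rose and 0 fell. The share that rose was near the 17.0% of all genes called as higher, and 33.7% were called as lower. Oasl1, an oligoadenylate synthetase-like protein, rose by 3.00 (adjusted p = 6.26e-05). Oasl1 was at 1.68, 1.83, -0.50 and -0.10 in the IRI arrays and at -2.46 to -2.10 in Control, so that all 4 IRI arrays lay above Control and the split between replicates 1 and 2 and replicates 3 and 4 was kept. Of 24 interferon gamma targets 1 rose and 3 fell, with a median of -0.11: the chemokine Cxcl10 rose by 3.11 (adjusted p = 7.78e-05). Of 8 STAT and IRF factors 3 rose and 1 fell, and of 10 feedback regulators 4 rose and 1 fell. Stat3, the transcription factor of interleukin 6 signalling, rose by 1.84 (adjusted p = 9.36e-07) and Socs3, a feedback inhibitor of cytokine receptors, by 4.93 (adjusted p = 1.68e-09). The median of the 29 effector genes was 0.20, and it was -0.42 without IRI replicates 1 and 2 and 0.72 without replicates 3 and 4. Oasl1 was at 1.97 and 4.03 in these, Cxcl10 at 2.35 and 3.86, Stat3 at 1.57 and 2.11 and Socs3 at 4.81 and 5.05.

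In IRI+Hemin against IRI, 10 of 29 effector genes fell and 1 rose (18.0% of all genes were lower), among them Oasl1 at -2.16 (adjusted p = 0.0016), the antiviral GTPase Mx2 at -1.89 (adjusted p = 0.0328) and the nucleotide kinase Cmpk2 at -1.74 (adjusted p = 0.00538). Of 24 interferon gamma targets 10 fell and 3 rose, with the GTPases Ifi47 at -2.27 and Gbp4 at -1.86. The median of the effector genes was -0.60, and it was 0.20 without IRI replicates 1 and 2 and -1.27 without replicates 3 and 4, and that of the interferon gamma targets was -0.72, -0.03 and -1.49. Mx2 was at 0.09 and -3.88 in these omissions, Oasl1 at -1.13 and -3.19 and Cmpk2 at -0.48 and -3.01. Of 8 STAT and IRF factors 3 fell and 2 rose. Irf9, the partner of STAT2, fell by 0.69, Irf2 by 1.10 and Irf5 by 1.01, and Stat3 was among those that rose, by 0.57. Irf9 was at -0.35 without IRI replicates 1 and 2 and at -1.04 without replicates 3 and 4. Against Hemin, IRI+Hemin had 17 of 32 effector genes lower and 0 higher (27.8% of all genes were lower), with Phf11 at -2.14 (adjusted p = 0.00242) and the oligoadenylate synthetase Oas2 at -2.11. In the interaction 2 of 32 effector genes passed, Oasl1 (-2.58, adjusted p = 0.0252) and Parp9 (-1.08, adjusted p = 0.0496). Of 8 STAT and IRF factors 2 passed with a negative sign, Irf9 (-1.04, adjusted p = 0.0437) among them, and 1 of 17 sensors and kinases passed with a positive one. Of all genes 1.95% passed with a negative sign and 5.83% with a positive one. The median of the 32 effector genes was -1.0, and it was -0.27 without IRI replicates 1 and 2 and -1.57 without replicates 3 and 4.

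In IPC+IRI against IRI, 6 of 25 interferon gamma targets rose and 0 fell. The share that rose was near the 26.0% of all genes called as higher, and 17.7% were called as lower. The peptide transporter subunit Tap2 was at 1.42 (adjusted p = 1.1e-05) and the immunoproteasome subunit Psmb9 at 1.16. Of 30 effector genes 1 rose and 4 fell, with Bst2, or tetherin, at 1.02 and Oasl1 at -1.5. Without IRI replicates 1 and 2 Bst2 was at 1.2 and Oasl1 at -0.47. The median of the interferon gamma targets was 0.31, and it was 1.01 without IRI replicates 1 and 2 and -0.29 without replicates 3 and 4, and that of the effector genes was -0.22, 0.57 and -1.04. Against IRI+Hemin, 11 of 25 interferon gamma targets were higher and 0 lower, with a median of 1.01, where 6.20% of all genes were called as higher. The neutrophil marker sum was 6.33, 15.4, 19.2 and 6.94 in IPC+IRI, and the leukocyte marker sum 0.828, 1.87, 2.94 and 1.5. The macrophage and monocyte sum was 5.2, 10.8, 11.6 and 9.13 and the endothelial sum 7.7, 21.8, 13.1 and 13.6, and all 4 sums were lowest in replicate 1. Tubule sums were instead highest in replicate 1. They were 301, 300, 282 and 253 for proximal tubule, 278, 198, 204 and 226 for thick limb, and 111, 91, 72.4 and 84.9 for distal tubule and collecting duct. Their part in these counts was not tested.

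In Hemin against Control, 3 of 32 effector genes rose and 1 fell, with the ubiquitin-like modifier Isg15 at 1.43 (adjusted p = 0.00734), Bst2 at 0.92 and Ifitm2 at -0.68. Of 17 sensors and kinases 2 rose and 2 fell: Tyk2, a kinase of the type I receptor, rose by 0.95 and Jak1 by 0.21, and Tbk1 fell by 0.48 and Tlr9 by 0.43. The median of the effector list was 0.38, against 0.06 over all genes, and 18.4% of all genes were called as higher and 17.5% as lower.

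Over the 20 arrays, the genes whose level ran most like the mean of Irf7, Ifit1, Ifit3, Rsad2 and Usp18 were Dhx58 (Pearson r 0.97), Rnf213 (0.94), Trim30 (0.93), Parp14 (0.93) and Parp9 (0.92), out of 14534 genes well above background throughout. Dhx58, which encodes the RNA sensor LGP2, was at -1.38, -1.98, -4.01 and -4.03 in the IRI arrays. The genes most like Irf1 were others: Il1b (0.88), Ptpn22 (0.87), Serpina3g (0.87), Pstpip1 (0.86) and H2-K1 (0.86). These correlations are descriptions across arrays that share groups and slides.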

How the data were processed

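Total RNA of whole kidney was labelled with Cy3 and hybridised to 20 one-colour Agilent arrays. The deposited scanner files hold processed intensity per spot from Agilent Feature Extraction 9.5.3.1, background-subtracted by the authors' software. A deposited series table holds log2 of the same intensity and served as an alternative. Here, spots flagged as non-uniform or population outliers (0.208% of spot values) were removed, spots were averaged per probe, signals were scaled to the 75th percentile of their array, probes of a gene name were averaged and log2 was taken. Genes well above background on at least 3 of 4 arrays of either group, with at most 1 missing value, were tested in a single fit of 5 group means over 19164 genes (limma 3.58.1, R 4.3.3, 15 residual degrees of freedom), which stood in place of the permutation method (SAM) of the study. The scripts were tested on simulated data. Promoters came from RefSeq tables.

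The 9 genes and all lists were chosen with earlier results of these data known. Named besides them are up to 3 called genes with the largest rise and up to 3 with the largest fall of each list and comparison, the 5 genes most like each pattern, and ligands, Mx2 in the account of the IRI arrays, and other calls of 2 short lists, chosen after their values were seen. Alternatives covered normexp, quantile or no normalization, mean of log2 over probes, the filter, a 2-fold minimum, the groups fitted alone, the replicate number as a block and leaving out each array. Leaving out IRI replicates 1 and 2 or 3 and 4 was added after the values were seen. Array number limits the precision.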

Additional observations from a re-analysis of the deposited data

Results flagged for a closer look

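Of 45 sets of 4 arrays (9 genes in 5 groups), 4 held an array far from the others by Dixon's 95% criterion on the gap over the range, and chance flags about 1 in 20 such sets. Usp18 was at -3.25 in IPC+IRI replicate 1, with the other arrays at -2.30 to -2.20 (gap ratio 0.902), and at -1.85 in Control replicate 3, with the others at -1.33 to -1.30 (0.946). Irf7 was at -1.77 in IRI+Hemin replicate 4, with the others at -2.10 to -2.09 (0.947). Irf8 was at 0.18 in IRI replicate 3, with the others at 0.40 to 0.45 (0.83). The 2-against-2 split of IRI in Ifit1, Rsad2 and Usp18 does not meet this criterion, which looks for 1 array apart. The change with hemin differed between operated and unoperated kidneys by -3.12 for Ifit1 and by -2.27 for Ifit2 (limma interaction, adjusted p = 0.0406 and 0.0253).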

How the results depend on the processing

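Over the alternatives that kept all arrays, 63 of 84 counts of members called stayed within 1.5 times the reported count, and of 688 single values 634 kept their side of the threshold, 31 lost a call and 23 gained one. Of them 17 changed sign, none past the threshold in either fit. In IRI against Control (2 called) normexp, the deposited log2 matrix and a 2-fold minimum each gave 1, and leaving out 1 array gave 1 to 5. In IPC+IRI against IRI (2 called) no normalization, the deposited matrix, no filter and a 2-fold minimum each gave 1 and the groups alone 0 (1 at an unadjusted p below 0.05), and leaving out 1 array gave 0 to 5. In IRI+Hemin against IRI (4 called) no normalization gave 2, the deposited matrix 1 and the groups alone 0 (4 unadjusted), with 3 to 6 when 1 array was left out. In Hemin against Control (1 called) no normalization gave 5, quantile normalization 2, the deposited matrix 4 and the groups alone 6, and leaving out 1 array always gave 1. With all arrays kept, in the same order, 49.8, 37.9, 43.8 and 41.2% of all genes were called. In IPC+IRI against Control (3 called) leaving out 1 array gave 2 to 3, and in IRI+Hemin against Hemin (4 called) 3 to 4. For the interaction (2 called) normexp and no normalization gave 0 (8 and 6 unadjusted), the mean of log2, the deposited matrix, no filter and the groups alone 1 each, and leaving out 1 array 0 to 6. For the omission of IRI replicates 1 and 2 or 3 and 4, chosen by their values, no calls are counted, and Usp18 in IRI against Control was at -1.02 and 1.71. The causes were not tested.

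Without normalization the median of all genes moved to 0.41 in IPC+IRI against IRI, 0.45 in IRI+Hemin against IRI and 0.62 in Hemin against Control, where 94.8% of calls were then higher instead of 51.2%. Normexp moved that share in IRI against Control from 33.5 to 56.5%. With the replicate number as a block the counts were 2, 3, 2, 4, 1, 4 and 2, as without it, and same-numbered arrays did not deviate together (correlations from -0.28 to 0.18), so the numbers do not pair the samples. A slide block could not be fitted, since each slide holds 1 group.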
